A study of Setaria viridis with 11 samples.

Results

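The OST1 transcripts described here are the 3 identifiers that the study annotates as OST1 in *Setaria viridis*, Si030837m, Si022378m and Si036531m, out of 40599 transcript identifiers in the count files. They were taken by identifier, each under its own identifier number, and all 3 passed the filter on low counts. Si030837m passed through the control plants, with 30 to 105 counts, since it had only 2 to 18 in heat plants. RNA-seq counts came from fully expanded leaves of 11 plants of the wild-type genotype A10. In the heat group, 6 plants were moved at 2 weeks of age to a second growth chamber with days of 42 °C and nights of 32 °C, where they stayed for 2 weeks. The control group consisted of 5 plants with days of 28 °C and nights of 20 °C throughout. This night temperature follows the study's methods, while its figure legends give a slightly higher one for the controls. Both groups were harvested at day 28 and had the same CO2 level (380 ppm) and irradiance (1000 µmol quanta per square metre per second). Each library came from the pooled leaf midsections of a single plant, and each temperature had its own chamber, so that chamber and temperature cannot be told apart.

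OST1 (OPEN STOMATA 1) is a protein kinase of the SnRK2 family, known best from Arabidopsis guard cells. In the absence of abscisic acid (ABA), clade A protein phosphatases of type 2C hold it inactive. When ABA binds its PYR/PYL/RCAR receptors, these phosphatases are inhibited, and the released kinase phosphorylates targets such as the anion channel SLAC1, which closes stomata, and the ABF transcription factors, which turn on ABA-responsive genes. Grasses carry several kinases related to OST1, and the deposited data allow the question of which of the OST1 transcripts a leaf carried at each temperature.

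Totals ranged from 34731849 to 47441261 counts in the heat plants and from 34362084 to 54011056 in the control plants. The plastid transcript psbA (Si020824m), which encodes the D1 protein of photosystem II, held 46.1% to 48.5% of the counts in heat plants and 61.8% to 69.6% in control plants. Levels are therefore given as CPM (counts scaled to a common library size) with TMM factors, which allow for such a difference in composition. Alignments to several places made up 20.2% to 30.8% of all tallied reads in the heat libraries and 15.4% to 16.3% in control plants 1, 3 and 4, but 59.1% in control plant 2 and 34.6% in control plant 5. These control libraries stand apart. Fold changes, share differences, the log2 total difference and the log2 ratio of Si036531m to Si030837m are also given without both. All 9 leaf markers examined had counts in every plant, although the RBCS transcript (Si023461m) was at only 0.876 to 3.24 CPM in heat plants and 5.96 to 12.04 CPM in control plants. With TMM factors, 8 were lower in heat plants by the same edgeR test (with library size only, 2 were lower and 1 higher), including both mesophyll markers (summed level 5361 to 15080 CPM in heat plants and 13620 to 19720 CPM in control plants) and 2 of the 3 bundle sheath markers (summed level of all 3, 269 to 599 CPM in heat plants and 874 to 1315 CPM in control plants). The part of such a shift in the OST1 results was not tested, no guard cell marker was examined, and in whole leaves fewer cells of a type cannot be told apart from less RNA per cell.

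The OST1 transcripts moved in opposite directions. In heat plants Si030837m fell by 4.04 on the log2 scale and Si022378m fell by 1.99, whereas Si036531m rose by 2.29. Each passed the threshold of edgeR's quasi-likelihood test over 18065 transcripts (adjusted p under 0.05). Such calls were common in these leaves, since 63.1% of all tested transcripts were called, 30.9% lower and 32.2% higher, so that the calls alone do not set the OST1 transcripts apart. The direction of every change was the same without control plants 2 and 5, with log2 fold changes of -3.86 for Si030837m, -1.92 for Si022378m and 2.06 for Si036531m.

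Si030837m was the transcript that fell furthest. It had 18, 9, 2, 11, 2 and 10 counts in heat plants 1 to 6, and 33, 105, 82, 102 and 30 counts in control plants 1 to 5. The lowest control plant thus had more counts than the highest heat plant, although the heat libraries were deeper once psbA is set aside (18555605 to 24411265 other counts in heat plants and 10708257 to 16556078 in control plants). In CPM, Si030837m averaged 0.149 ± 0.097 in heat plants (SD, n = 6) and 2.55 ± 1.75 in control plants (SD, n = 5). The log2 fold change of -4.04 had a standard error of 0.52 and an adjusted p of 1.17e-05 (edgeR quasi-likelihood test). Of all tested transcripts, 90 (0.498%) had a fall at least as large. Si030837m passed the filter on low counts through the control plants, where it was high, and its p and rank carry that limit. Counts of 2 in heat plants 3 and 5 leave their levels loosely fixed, with exact 95% Poisson intervals of 0.00403 to 0.120 CPM and 0.00471 to 0.141 CPM, which cover counting error only. The lower end of every control plant's interval, 0.600 CPM or more, lay above the upper end in every heat plant, 0.428 CPM or less.

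**Figure D1:**
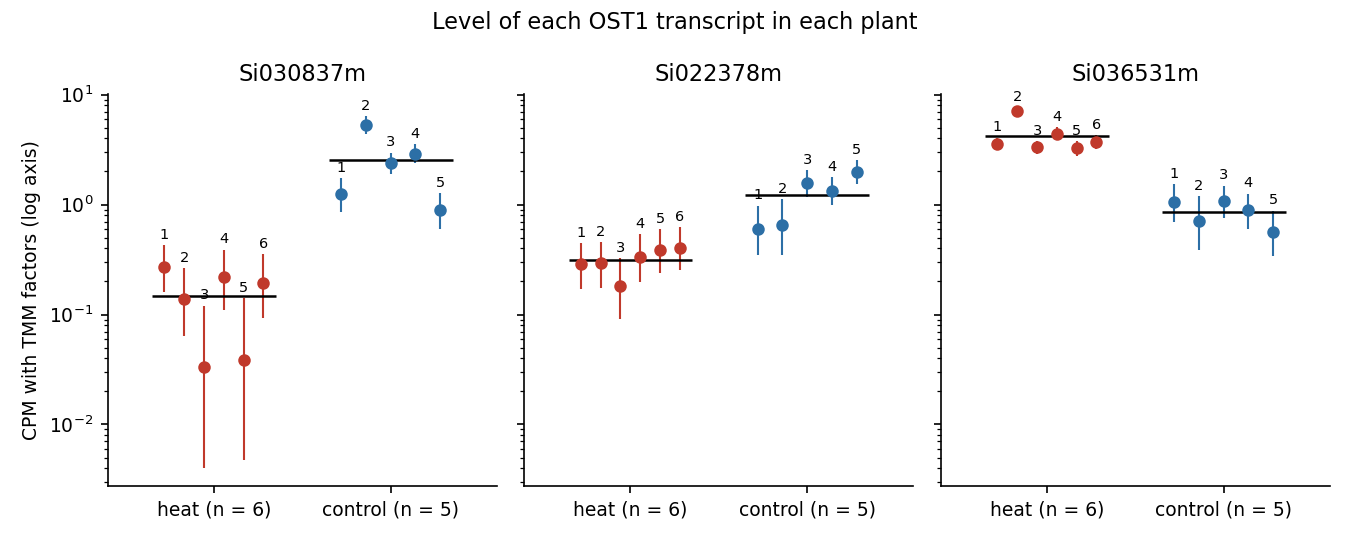
Level of the OST1 transcripts in each plant, in CPM with TMM factors on a log axis, with heat plants (red, n = 6) left of control plants (blue, n = 5). Points carry the plant number, bars are exact 95% Poisson intervals of the count and black lines are group means. Heat plants lie below all control plants for Si030837m and Si022378m and above all of them for Si036531m.

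Si022378m, the other transcript that fell, had 19, 19, 11, 17, 20 and 21 counts in heat plants 1 to 6, and 16, 13, 54, 47 and 67 counts in control plants 1 to 5. Raw counts of the groups overlapped, because control plants 1 and 2 had fewer counts than all heat plants but heat plant 3. With TMM factors the levels no longer overlapped, at 0.183 to 0.406 CPM in heat plants and 0.602 to 1.99 CPM in control plants. Means were 0.315 ± 0.081 CPM (SD, n = 6) in heat plants and 1.23 ± 0.60 CPM (SD, n = 5) in control plants. The log2 fold change was -1.99 (SE 0.32, adjusted p = 9.00e-05, edgeR quasi-likelihood test). With library size as the only scaling, the levels were 0.253 to 0.543 CPM in heat plants and 0.355 to 1.25 CPM in control plants, the log2 fold change was -0.98 and the adjusted p 0.0190.

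Si036531m rose under heat and then held most of the OST1 counts. It had 238, 459, 199, 223, 167 and 193 counts in heat plants 1 to 6, and 28, 14, 37, 31 and 19 counts in control plants 1 to 5. The lowest heat plant thus had 167 counts and the highest control plant 37. The level averaged 4.22 ± 1.45 CPM (SD, n = 6) in heat plants, with heat plant 2 highest at 7.05 CPM, and 0.858 ± 0.222 CPM (SD, n = 5) in control plants. The log2 fold change was 2.29 (SE 0.25, adjusted p = 2.59e-06, edgeR quasi-likelihood test), and it was 2.11 without heat plant 2. A rise at least as large was found for 1134 of the tested transcripts (6.28%).

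With TMM factors none of the OST1 transcripts overlapped between the groups, and among all tested transcripts 23.5% lay wholly above and 21.4% wholly below the control plants. Scaling by library size only added about as much to every transcript, and the median log2 fold change over all transcripts was then 1.07, against 0.02 with TMM factors. Under that scaling 73.2% of the tested transcripts were called higher and 7.67% lower. The OST1 changes were then -2.99 for Si030837m (adjusted p = 8.44e-05) and 3.34 for Si036531m (adjusted p = 1.18e-07), so that both kept their sign on either scale, as did Si022378m.

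**Figure D2:**
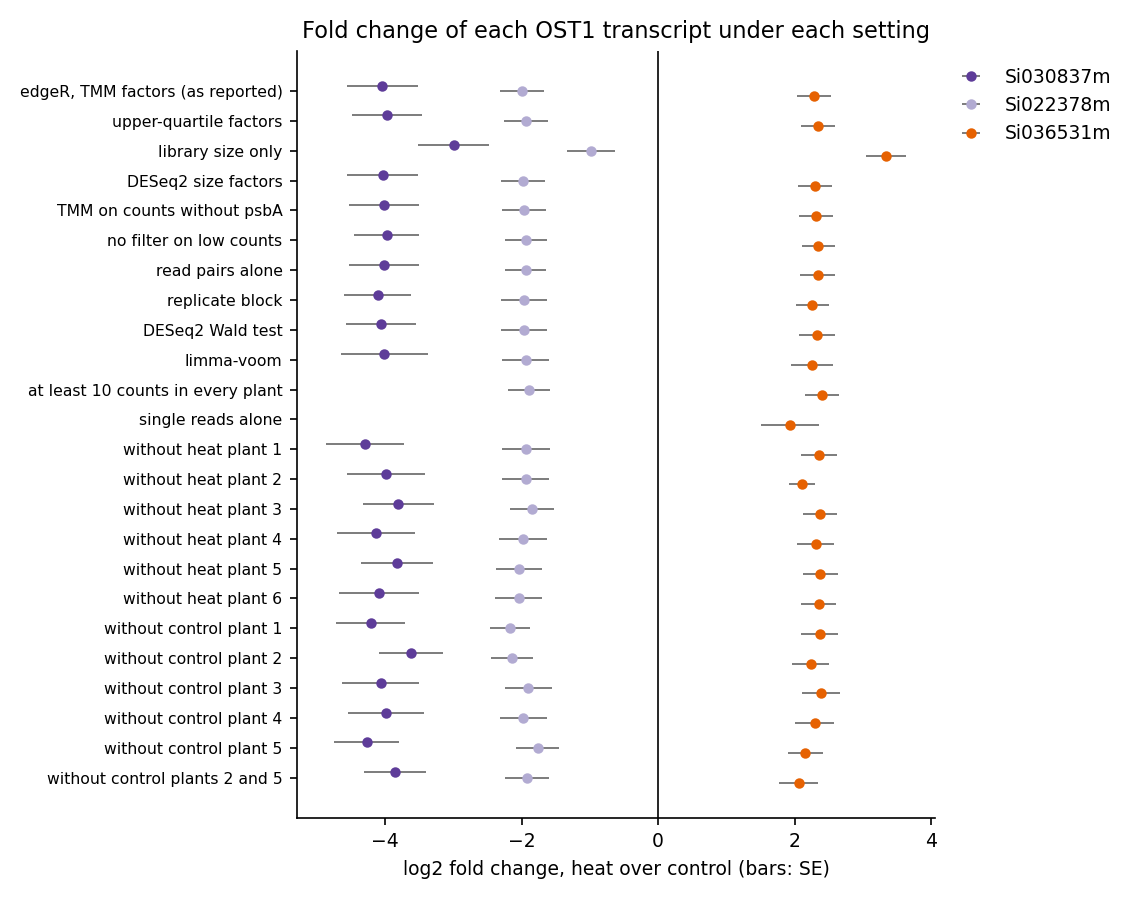
Log2 fold change of each OST1 transcript, heat over control, under each setting of the processing and with plants left out, with standard errors as bars. Si030837m runs from -4.30 to -2.99, Si022378m from -2.17 to -0.98 and Si036531m from 1.94 to 3.34, and no setting brings a transcript across 0.

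The make-up of the OST1 counts was compared as the share of each transcript in the sum of a plant, a value in which the scaling of the libraries cancels. These are shares of counts and not of molecules, since transcript lengths were not used here. A longer transcript yields more counts per molecule, but in the same way in every plant. As far as length goes, a ratio between transcripts can therefore be compared across plants. Reads with several places were not counted, and they made up 15.4% to 59.1% of tallied reads in a plant. Their part in the shares was not tested. No test was made on the shares, because the OST1 transcripts were chosen with their changes known.

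In heat plants Si036531m made up 89.7% ± 3.6 (SD, n = 6) of the OST1 counts, against 20.4% ± 9.7 (SD, n = 5) in control plants. Its share ranged from 86.2% to 94.3% in heat plants and from 10.6% to 36.4% in control plants, so that a wide gap separated the groups. Exact 95% binomial intervals of single plants, which cover counting error only, reached down to 80.9% in heat plants and up to 48.1% in control plants. In heat plants the level of Si036531m also spread more than counting error, with heat plant 2 highest. In control plants the excess was small and was not tested. Given the scaled library sizes, the variance of its counts was 30.8 times the Poisson value in heat plants and 1.76 times in control plants. These 2 values describe the level and not the share. Si030837m held 3.21% ± 2.27 of the OST1 counts in heat plants and 50.5% ± 19.7 in control plants (SD, n = 6 and 5). Its highest share in a heat plant was 6.55%, and its lowest in a control plant was 25.9%. The share of Si022378m was 7.12% ± 2.50 in heat plants and 29.1% ± 17.9 in control plants. Here the groups overlapped, since heat plant 5 had 10.6% and control plant 2 had 9.85%. Without control plants 2 and 5, the difference in share, heat minus control, was 64.7 percentage points for Si036531m, -45.8 for Si030837m and -18.9 for Si022378m.

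**Figure D3:**
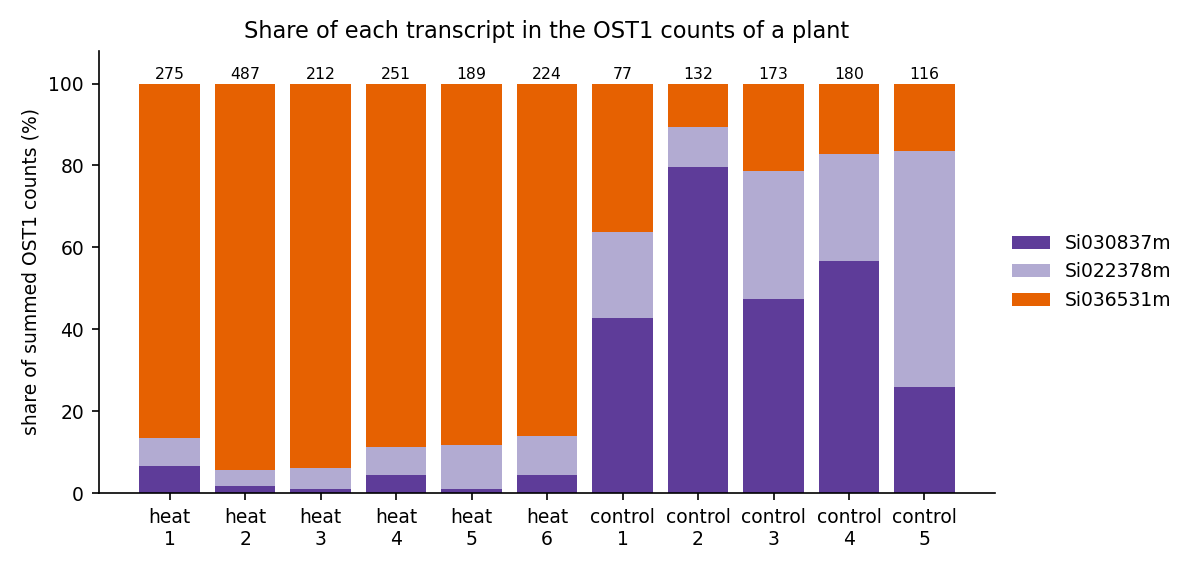
Share of each OST1 transcript in the summed OST1 counts of a plant, in percent, with the summed counts above each bar. Si036531m (orange) fills 86.2% or more of every heat bar and 36.4% or less of every control bar, while the split between Si030837m and Si022378m differs from plant to plant.

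The exchange was steepest between Si036531m and Si030837m. Per count of Si030837m there were 13.2, 51.0, 99.5, 20.3, 83.5 and 19.3 counts of Si036531m in heat plants 1 to 6, against 0.848, 0.133, 0.451, 0.304 and 0.633 in control plants 1 to 5. On the log2 scale this ratio averaged 5.17 ± 1.22 (SD, n = 6) in heat plants and -1.33 ± 1.04 (SD, n = 5) in control plants, a difference of 6.51, or 6.21 without control plants 2 and 5. Every heat plant had a ratio above 1 and every control plant a ratio below 1. The highest ratios, in heat plants 3 and 5, rest on 2 counts of Si030837m each.

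Against Si022378m the exchange was smaller. The log2 ratio of Si036531m to Si022378m was 3.06 to 4.59 in heat plants and -1.82 to 0.81 in control plants, without overlap. Between the transcripts that both fell, the log2 ratio of Si030837m to Si022378m averaged -1.44 ± 1.21 (SD, n = 6) in heat plants and 0.92 ± 1.49 (SD, n = 5) in control plants. The groups overlapped in this ratio because of control plant 5, at -1.16, whereas all other control plants had more counts of Si030837m than of Si022378m and all heat plants had fewer.

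The control plants differed among themselves in which transcript had the most counts. Si030837m had the largest share in control plants 1 to 4, from 42.9% in control plant 1 to 79.5% in control plant 2. In control plant 5 it held 25.9%, and Si022378m led with 57.8%. These extremes are the control plants with the largest shares of alignments to several places, 59.1% and 34.6%, and the part of that in their OST1 shares was not tested. Over the control plants, the level of Si030837m ranged 5.96-fold between the lowest and the highest and that of Si022378m 3.30-fold, while Si036531m ranged 1.91-fold. The ends of the 5.96-fold range are control plants 2 and 5. In control plants 1, 3 and 4, Si030837m lay at 1.24 to 2.91 CPM and Si022378m at 0.602 to 1.57 CPM. Si030837m thus did not range most in those plants. In heat plants Si030837m ranged most, 8.13-fold, while Si022378m ranged 2.22-fold and Si036531m 2.17-fold. The 8.13-fold range rests on the 2 counts of heat plant 3, so that the place of Si030837m in this order is loosely fixed. In all 6 heat plants Si036531m led.

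The total OST1 level, the summed CPM of the 3 transcripts, was alike in range in both groups with TMM factors. This is a sum of counts and not of molecules, since transcript lengths were not used here. The make-up of the sum differed between the groups, so that length does not cancel in this comparison. The total was 4.13, 7.48, 3.53, 4.97, 3.68 and 4.33 CPM in heat plants 1 to 6, and 2.90, 6.67, 5.05, 5.13 and 3.44 CPM in control plants 1 to 5. Means were 4.69 ± 1.46 CPM (SD, n = 6) in heat plants and 4.64 ± 1.5 CPM (SD, n = 5) in control plants. The log2 totals differed by 0.03, heat minus control, and with each plant left out in turn this difference lay between -0.12 and 0.18. Without control plants 2 and 5 it was 0.10. The groups thus overlapped widely, although Si030837m and Si022378m together had 0.464 ± 0.141 CPM in heat plants and 3.78 ± 1.55 CPM in control plants (SD, n = 6 and 5). No test was made on the sum.

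This likeness of the totals holds for TMM factors and not for every scaling. Scaled by library size only, the total was 4.88 to 11.2 CPM in heat plants and 1.71 to 4.09 CPM in control plants, without overlap, and the log2 difference was 1.09, close to the 1.07 of the median transcript under that scaling. In raw counts, the sum was 189 to 487 in heat plants and 77 to 180 in control plants. Relative to the median transcript, the total OST1 level of the groups, as a sum of counts, was therefore close. A change of scaling moves all transcripts by about as much, so either scale gives this answer by construction. From single reads alone, the log2 difference of the total was 0.48 and the median log2 fold change 0.04. Whether the number of OST1 molecules or the total amount per leaf cell differed cannot be read from these values.

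**Figure D4:**
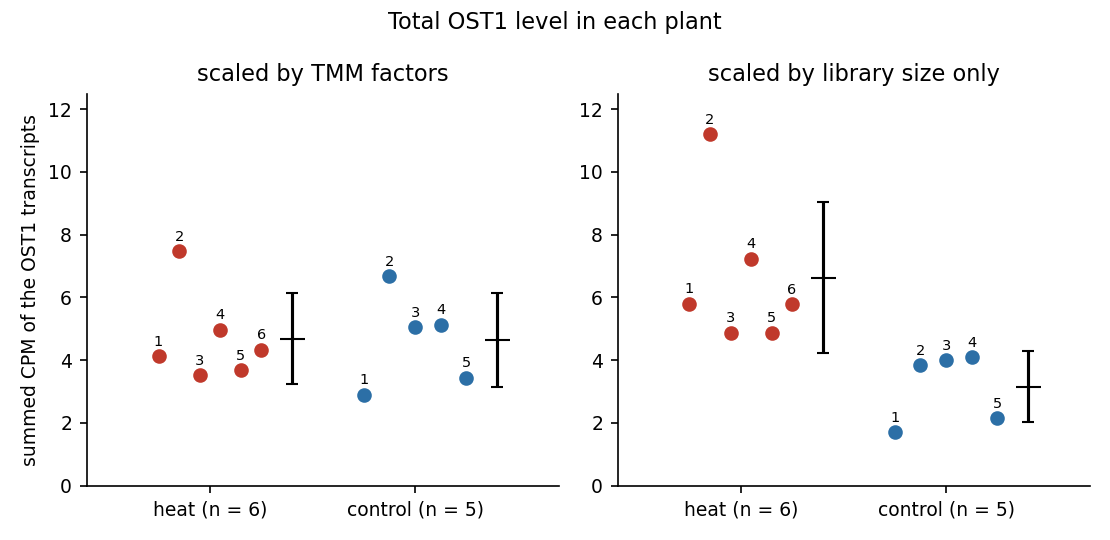
Summed CPM of the OST1 transcripts in each plant, with heat plants (red, n = 6) left of control plants (blue, n = 5), numbered by plant, and means with SD as black bars. With TMM factors (left) the groups overlap, with means of 4.69 and 4.64 CPM, and with library size only (right) all heat plants lie at 4.88 CPM or above and all control plants at 4.09 CPM or below.

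The transcripts most like each OST1 transcript across the 11 plants were found by Pearson's r of log2 CPM. For Si030837m this was Si023265m (r = 0.987, log2 fold change -3.32, adjusted p = 3.68e-06 by edgeR), at 1.98 to 9.23 CPM in heat plants and 28.8 to 78.0 CPM in control plants. For Si022378m it was Si003192m (r = 0.955, log2 fold change -1.15, adjusted p = 3.77e-04 by edgeR), at 0.216 to 0.406 CPM in heat plants and 0.565 to 0.860 CPM in control plants. For Si036531m it was Si024327m (r = 0.994, log2 fold change 3.84, adjusted p = 5.81e-07 by edgeR), at 1.16 to 2.38 CPM in heat plants and 0.0297 to 0.151 CPM in control plants. All transcripts share the scaling factors of the plants, and the plants fall into separate temperature groups, so that these correlations mostly repeat the difference between the groups. No gene name is paired with these identifiers in the sources used here.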

How the data were processed

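The authors removed ribosomal RNA, trimmed reads (Trimmomatic), mapped them with TopHat2 on the genome of *S. italica* and used HTSeq (union mode) for counts per exon set; the strand setting is not given in the sources used here. The deposited unit is the count, in 22 files, with read pairs and single reads apart. Both were summed per plant, and the authors' sum column in 10 files held the same sums. The 5 summary lines per file (30.3% to 67.3% of all tallied reads) were left out. Reads with several places were not counted. Of the 40599 identifiers, 11054 had no count.

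Scarce transcripts were filtered by edgeR 4.0.16 (filterByExpr), and heat was compared with control by its quasi-likelihood test with TMM factors and Benjamini-Hochberg adjustment over 18065 transcripts (threshold 0.05; R 4.3.3). Standard errors are the log2 fold change over the root of F; log2 CPM used a prior count of 2. The fit was also run on simulated counts in which few transcripts changed, up and down alike. In these data 63.1% of tested transcripts were called, so that run cannot show how the fit behaves here. The p-values set the difference between the groups against the spread between these plants. Nothing says how the plants were spread over days, and each temperature had its own chamber, so p-values do not reach beyond these plants and chambers. The OST1 transcripts, markers and settings were chosen with earlier results of these data known. Named are the OST1 transcripts, the transcript most like each, psbA and the leaf markers (psbA, rbcL, LHCB3, PSBO; mesophyll: PEP carboxylase, carbonic anhydrase; bundle sheath: RBCS, NADP-malic enzyme, Rubisco activase). A list of other ABA pathway genes was planned from gene names, but 0 of the identifiers matched the RefSeq gene table, so such a list, lengths and sequences were not used here. Plant numbers occur in both groups. Plants with the same number correlated in their deviations from the mean of their group at -0.0235 to 0.152 (mean 0.042, other pairs -0.00885), and the plants were treated as unpaired. DESeq2 1.42.0 and limma 3.58.1 served as alternatives.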

Additional observations from a re-analysis of the deposited data

Results flagged for a closer look

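Among 16 groups of plants examined for a value far from the rest (each OST1 transcript's level and share, the total level and the ratio of Si036531m to Si030837m, in heat and in control), 2 held such a value, and chance alone marks about 1 group in 20. Both came from heat plant 2, whose level of Si036531m was 7.05 CPM, while the other heat plants lay at 3.25 to 4.42 CPM. Its total OST1 level was 7.48 CPM, of which Si036531m is the greater part, so that these values are not independent. The share of Si036531m in heat plant 2, 94.3%, was not marked.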

How the results depend on the processing

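The changes of Si030837m, Si022378m and Si036531m kept their direction and passed the threshold in each of the 21, 22 and 23 alternatives in which they were tested, with an adjusted p of at most 1.26e-04, 0.0190 and 9.17e-04. With 1 plant left out, the log2 fold changes ran from -4.30 to -3.62, -2.17 to -1.76 and 2.11 to 2.39. With plant number as a replicate block they were -4.11, -1.97 and 2.26, and the block changed no call. A minimum of 10 counts in every plant removed Si030837m, and single reads alone removed Si030837m and Si022378m, since fewer counts were left. Library size as the only scaling gave 13216 higher and 1385 lower transcripts, against 5818 and 5583 as reported, and single reads alone gave 3004 and 2792. From single reads alone the difference in the share of Si036531m was 58.3 percentage points, against 69.3. The difference in log2 total OST1 level, 0.03 as reported, was 1.09 with library size only, 0.48 from single reads, and -1.06 as the mean of the log2 levels of the OST1 transcripts, which weighs scarce and abundant transcripts alike. It turned negative without heat plant 2 (-0.12), control plant 1 (-0.12) or control plant 5 (-0.06), and ran from -0.12 to 0.18 over all plants left out in turn. Leaving out control plants 2 and 5 was chosen after seeing the data. Shares and totals per length were not computed, since no lengths were used here. Counts of 2 to 21 in the heat plants limit the precision for Si030837m and Si022378m.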
